A study of Homo sapiens with 36 samples.

Results

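The amino acid transporter families are the solute carriers of the SLC1, SLC3, SLC6, SLC7, SLC36, SLC38 and SLC43 families, and their RNA was followed here in 2 prostate cancer cell lines with and without an androgen. They were chosen by name: protein-coding rows of the deposited count table whose symbol begins with SLC1A, SLC3A, SLC6A, SLC7A, SLC36A, SLC38A or SLC43A and a digit. This gave 60 genes of 61805 with a name. Of these, 59 are transporters or their partner chains. SLC7A6OS, the remaining one, is a gene on the opposite strand of SLC7A6 that fits the pattern by its name alone.

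The 36 libraries fall into 12 groups of 3. LNCaP is an androgen-responsive human prostate cancer line. The 42D line came from LNCaP and resists enzalutamide, a drug that blocks the androgen receptor. Each line carried NT3, taken here as the non-targeting control, or sgT33-5, read from the series title as a guide against TRIM33, a ubiquitin ligase of the tripartite-motif family. LNCaP also had 2 further lines labelled sgT33-5_MC_C2 and sgT33-5_MC_F2, called C2 and F2 below; the labels do not say what the letters stand for or whether each is 1 clone. All cells had spent 3 days in hormone-stripped serum and then received DMSO, the vehicle, or 5 nM R1881, a synthetic androgen, for 6 h. The groups are therefore NT3, sgT33-5, C2 and F2 in LNCaP and NT3 and sgT33-5 in 42D, each with DMSO and with R1881. Nothing in the labels says that the 3 libraries of a group were separate cultures, so p-values measure the spread between these libraries.

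As background, amino acids cross membranes through carriers that differ in substrate, in driving ion and in the membrane they occupy. Members of SLC38 and SLC1 bring in glutamine, alanine, serine or glutamate with sodium. The SLC7 light chains exchange large neutral or cationic amino acids or cystine, and several of them need the SLC3A2 heavy chain to reach the surface. SLC36A1 and SLC38A9 sit on lysosomes, where amino acid levels are read by the growth kinase mTORC1. Prostate cancer cells are known to use SLC1A5, SLC7A5 and SLC43A1 for glutamine and leucine.

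Library totals ran from 13900744 to 19793268 counts. TRIM33 measured 93.3 CPM (read counts scaled to library size) in LNCaP NT3 with DMSO, 47.8 in sgT33-5, 35.1 in C2 and 42.3 in F2, and in 42D it measured 84.4 in NT3 and 57.3 in sgT33-5. The androgen target FKBP5 rose with R1881 in all 6 lines, by 3.02 (log2, SE 0.0898) in LNCaP NT3 and by 3.89 (SE 0.0471) in 42D NT3. The rise was 1.77 (SE 0.0863) in C2. Against LNCaP NT3, both with R1881, FKBP5 stood at -0.32 (SE 0.0814) in sgT33-5, -1.14 (SE 0.0826) in C2 and -0.54 (SE 0.0816) in F2. In 42D sgT33-5 it stood at 0.16 (SE 0.0403) against 42D NT3. The luminal markers KRT8, KRT18, HOXB13 and EPCAM were high in both lines, while no group mean exceeded 0.0182 CPM for the basal marker KRT5 or 0.415 CPM for PTPRC, of leukocytes. The neuroendocrine marker NCAM1 measured 28.1 CPM in 42D NT3 with DMSO and 0.173 in LNCaP. Of the LNCaP libraries, 22 had 4.16 to 6.66% of their counts in mitochondrial genes. Both exceptions carried sgT33-5: DMSO replicate 3 had 2.14%, and R1881 replicate 1 had 2.4%.

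Libraries that share a replicate number moved together in part of the transporters. Among 26 family members with a mean of at least 5 CPM, 10 had replicate 3 as the highest library in all 8 LNCaP groups, against 3.1% of all genes at that level. The 10 were SLC1A4, SLC1A5, SLC38A1, SLC38A2, SLC3A2, SLC43A1, SLC6A9, SLC7A1, SLC7A11 and SLC7A5. SLC7A11, the cystine and glutamate exchanger, measured 235, 179.7 and 409 CPM in the 3 LNCaP NT3 libraries with DMSO and 250.3, 193 and 407 with R1881. Replicate 3 stood far above the other 2, while the treatment means were 274 and 284 CPM. SLC6A8, the creatine carrier, measured 219, 219 and 215 CPM in the same DMSO libraries and had no such pattern. Among 28 genes of the amino acid response at that level, a set of ATF4 targets in which several of these transporters are textbook members, 19 had replicate 3 highest in all 8 groups. The labels do not say what a replicate number marks. In 7 of the 21 comparisons the same-numbered libraries deviated together strongly enough to count as pairs, and values from a fit with the number as a block are given there.

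**Figure D1:**
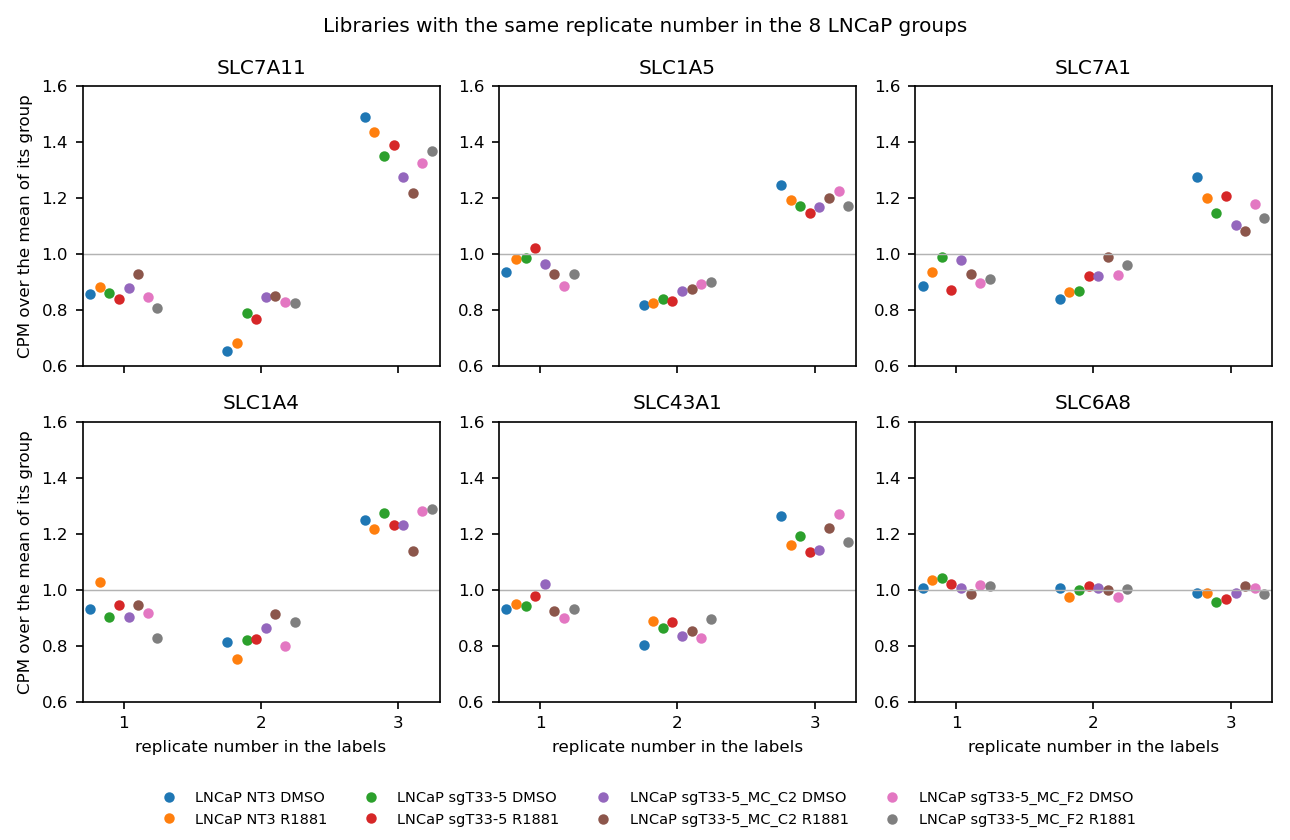
Level of 6 transporters in each LNCaP library, divided by the mean of its group of 3 libraries (vertical axis, ratio of CPM), against the replicate number in the labels (horizontal axis); each colour is 1 of the 8 groups. SLC7A11, SLC1A5, SLC7A1, SLC1A4 and SLC43A1 were highest in replicate 3 in all 8 groups, and SLC6A8 was in 1 of them.

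A few carriers made up most of the family's RNA. Per kilobase of exon, SLC1A5, the glutamine exchanger, led in LNCaP NT3 with DMSO at 70.3 CPM per kb, followed by SLC38A2 at 67.6, SLC7A1 at 59, SLC38A1 at 45.7, SLC6A8 at 39.6 and SLC3A2 at 31.6. SLC38A1 and SLC38A2 are the sodium-coupled carriers of small neutral amino acids, and SLC7A1 carries arginine and lysine. In 42D NT3 with DMSO the order was SLC7A1 at 66.6 CPM per kb, SLC6A8 at 52.7, SLC38A2 at 48.3 and SLC1A5 at 46.7. The libraries of neighbours in these orders overlapped in places: SLC1A5 ran from 191 to 292 CPM in the 3 LNCaP libraries. In all, 29 members reached a mean of 5 CPM in at least 1 group, and 38 passed the filter on low counts in at least 1 fit (35 in LNCaP, 36 in 42D). The 22 that never passed had group means of at most 0.442 CPM, and SLC6A15, SLC6A18 and SLC7A4 had 0 counts in all 36 libraries.

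**Figure D2:**
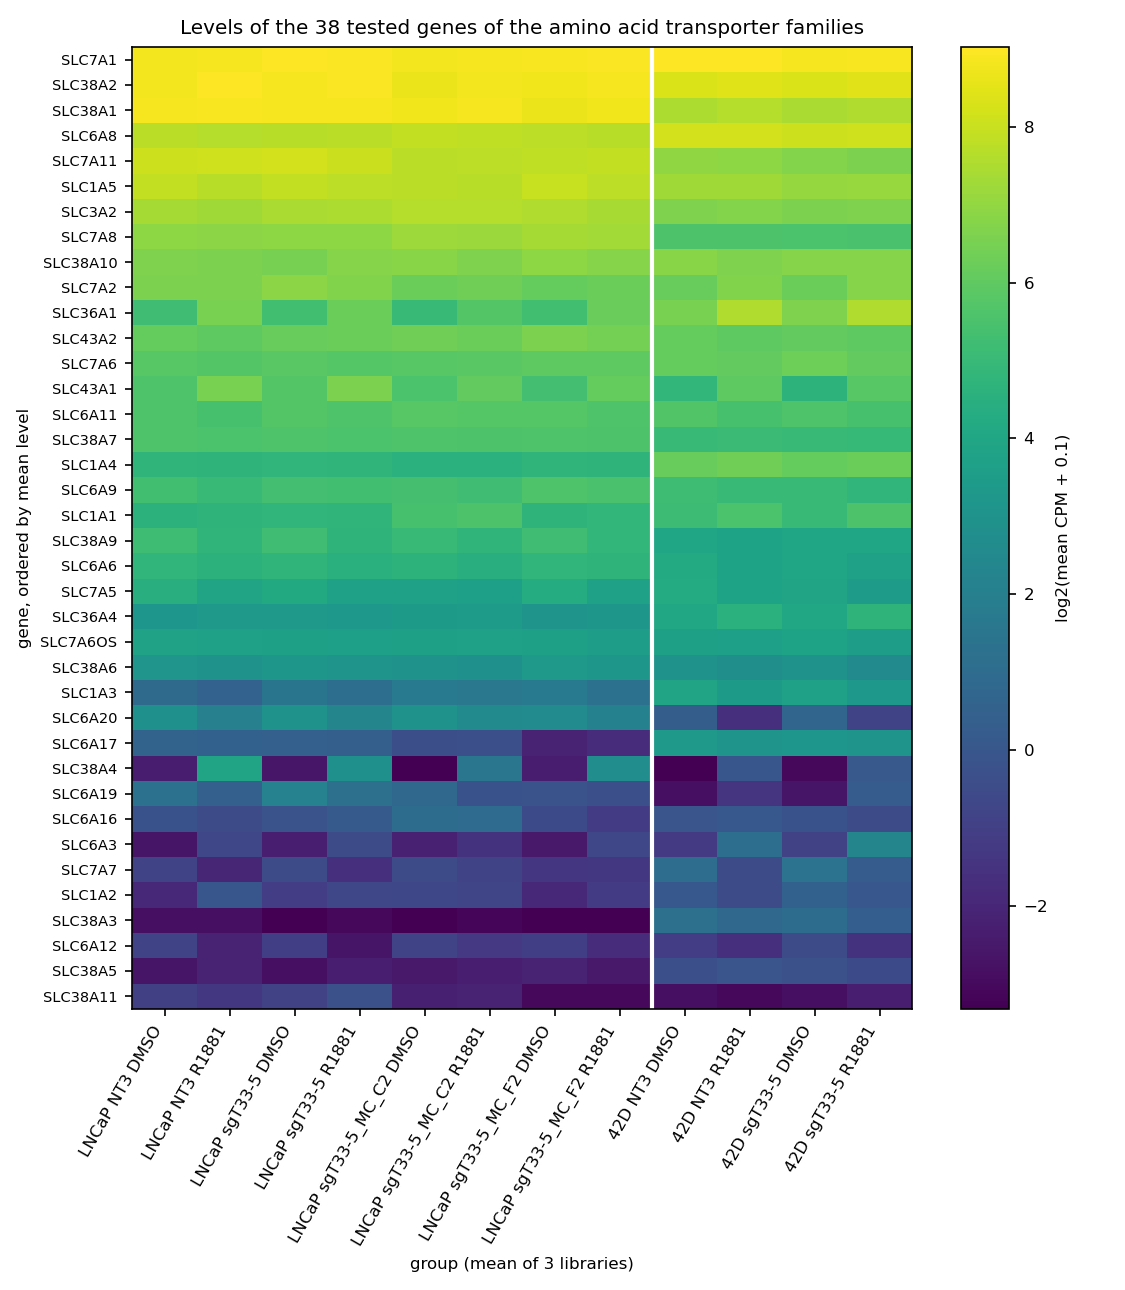
Mean level of the 38 members that passed the filter (rows, ordered by mean) in the 12 groups (columns), as log2(mean CPM + 0.1) of 3 libraries; the white line separates LNCaP from 42D. SLC38A4, SLC36A1 and SLC43A1 are brighter in R1881 columns, and SLC7A8 and SLC38A1 are brighter in LNCaP.

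Which transporters does the androgen change in LNCaP? With R1881, 5 of 35 tested members rose in the NT3 line and 3 fell (edgeR quasi-likelihood test, Benjamini-Hochberg adjusted p under 0.05 over all genes). SLC38A4, SLC36A1, SLC43A1, SLC1A2 and SLC6A3 rose, and SLC38A9, SLC6A20 and SLC6A19 fell. Over all 15519 genes tested, 8% rose and 5.15% fell, so the share of members that rose was 14.3% beside 8% and the share that fell 8.57% beside 5.15%. The median log2 change was -0.08 over the members and -0.01 over all genes. Most of the abundant carriers, among them SLC1A5, SLC7A1, SLC38A1 and SLC7A11, did not pass.

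SLC38A4, a sodium-coupled carrier of small neutral amino acids, went from almost no reads to a moderate level. It had 0, 2 and 2 counts in the 3 NT3 libraries with DMSO and 189, 244 and 227 with R1881, or 12, 16.2 and 15.2 CPM. The ratio of the summed counts was 168, with a 95% counting interval from 65.3 to 618 that covers counting error only. Every R1881 library stood far above every DMSO library, and the same was true in each of the other 5 lines. The gene lies on chromosome 12 at 46764761 to 46832408 (minus strand, GRCh38). SLC38A1 and SLC38A2 lie on the same strand nearby, at 46183063 to 46270017 and 46358188 to 46372773, and they measured 472, 459 and 528 CPM and 478, 496 and 578 CPM with R1881 against 449, 426 and 499 and 413, 428 and 498 with DMSO. Neither passed the test in LNCaP NT3. Both were higher with R1881 within each replicate number, and with the number as a block SLC38A2 passed (log2 0.21, SE 0.0424, adjusted p = 0.000367). An antisense gene, SLC38A4-AS1, overlaps SLC38A4, and the strand setting of the counting is not given in the sources used here. Its means over the LNCaP lines were 3.44 to 3.95 CPM with DMSO and 4.01 to 4.94 with R1881, with overlapping libraries in NT3, sgT33-5 and C2 and none in F2.

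The bases before the start sites of SLC38A4, SLC36A1 and SLC43A1 are shown because these members rose in both cell lines and reached 5 CPM. They are the 250 bases upstream of a RefSeq start (GRCh38.p14, gene strand), for SLC38A4 at chr12:46825998-46826247, for SLC36A1 at chr5:151447353-151447602 and for SLC43A1 at chr11:57515703-57515952. Capitals mark AGAACA or its reverse complement, the half-site of the androgen receptor's palindrome, and CACGTG, the E-box.
SLC38A4: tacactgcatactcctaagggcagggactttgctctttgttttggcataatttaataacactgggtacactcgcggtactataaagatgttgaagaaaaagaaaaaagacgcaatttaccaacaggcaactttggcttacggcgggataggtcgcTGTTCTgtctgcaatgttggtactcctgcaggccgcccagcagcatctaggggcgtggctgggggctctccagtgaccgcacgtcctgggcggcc
SLC36A1: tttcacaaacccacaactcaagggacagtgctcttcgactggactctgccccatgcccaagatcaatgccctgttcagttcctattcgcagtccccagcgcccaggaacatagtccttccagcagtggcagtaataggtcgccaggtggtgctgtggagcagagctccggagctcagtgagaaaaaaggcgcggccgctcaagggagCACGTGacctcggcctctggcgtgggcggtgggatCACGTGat
SLC43A1: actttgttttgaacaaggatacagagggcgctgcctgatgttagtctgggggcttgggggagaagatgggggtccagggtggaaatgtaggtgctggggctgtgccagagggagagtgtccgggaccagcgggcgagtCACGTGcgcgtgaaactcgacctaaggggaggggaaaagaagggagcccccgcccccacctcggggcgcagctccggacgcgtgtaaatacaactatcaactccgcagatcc
The SLC38A4 window held 1 half-site, 89 bases before the start, and no E-box. The SLC36A1 window held 2 E-boxes, 37 and 2 bases before the start, and the SLC43A1 window held 1; neither held a half-site, and a further RefSeq start of each gene had neither motif. Searched on both strands in the same 250 bases of all 35116 windows, the half-site was in 12.4% and the E-box in 6.34%. The 45 members matched in RefSeq have 67 such windows, of which 5 (7.46%) held the half-site and 9 (13.4%) the E-box. The full palindrome, the half-site and its reverse complement set 3 bases apart, and the amino acid response motif TGATGNAAT were in no member's window and in 0.00285% and 0.888% of all windows. A match here describes letters only.

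SLC36A1, the proton-coupled carrier of small amino acids on lysosomes and the surface, rose with a narrow spread between libraries. It measured 37.1, 36.6 and 38.4 CPM with DMSO in LNCaP NT3 and 89.8, 95.6 and 91 with R1881, a log2 change of 1.30 (SE 0.089, adjusted p = 2.21e-11). In each of the 4 LNCaP lines the R1881 libraries were all above the DMSO libraries. SLC36A2 and SLC36A3, its neighbours on chromosome 5, stayed at or under 0.165 CPM, and SLC36A4, a proline and tryptophan carrier, measured 8.76 and 10.2 CPM and did not pass.

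SLC43A1, a sodium-independent carrier of leucine and other large neutral amino acids first described in prostate cancer, measured 46.4, 40 and 62.8 CPM with DMSO and 87.5, 82 and 107 with R1881. The rise was 0.88 (log2, SE 0.202, adjusted p = 0.00499), and every R1881 library was higher. SLC43A2, of the same substrate class, measured 69.4 and 63.3 CPM and did not pass.

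The members that fell stood at 36.7 (SLC38A9), 7.31 (SLC6A20) and 2.38 CPM (SLC6A19) with DMSO. SLC38A9, the lysosomal arginine sensor, measured 40, 36.5 and 33.7 CPM with DMSO and 27.2, 26.2 and 27.6 with R1881, a fall by 0.45 on the log2 scale (SE 0.0779, adjusted p = 0.000104). SLC6A20, a proline carrier of gut and kidney, measured 6.54, 6.39 and 8.99 CPM and 3.95, 3.65 and 4.54, a fall by 0.86 (SE 0.146, adjusted p = 8.78e-05). In neither gene did the groups overlap. SLC6A19, a neutral amino acid carrier of gut and kidney, measured 2.38 and 1.29 CPM. It did not keep its call without DMSO replicate 1 or 2 (adjusted p = 0.0795 and 0.177) or R1881 replicate 2 or 3 (0.0614 and 0.213), nor with DESeq2 (0.0546) or in a fit of these libraries alone (0.0542).

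The other 2 members that rose had means under 1 CPM. SLC1A2, a glutamate carrier best known in glia, had 8 counts over the DMSO libraries and 40 over the R1881 libraries, a ratio of 5.09 (95% counting interval 2.35 to 12.6). SLC6A3, the dopamine transporter, had 3 and 24 counts, a ratio of 8.14 (2.47 to 42.2), and its call ended without DMSO replicate 3 (adjusted p = 0.0635) or R1881 replicate 2 (0.0811). With the replicate number as a block, 13 members passed in LNCaP NT3, 6 up and 7 down, beside 11% and 7.73% of all genes in that fit. The added ones were SLC38A2 (0.21), SLC7A5 (-0.50), SLC1A5 (-0.15), SLC6A11 (-0.19) and SLC6A8 (-0.12, all log2). SLC7A5, the leucine exchanger that pairs with SLC3A2, measured 19.8, 17.1 and 26.3 CPM with DMSO and 15.4, 11.3 and 18.2 with R1881, lower within each replicate number and overlapping without it.

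**Figure D3:**
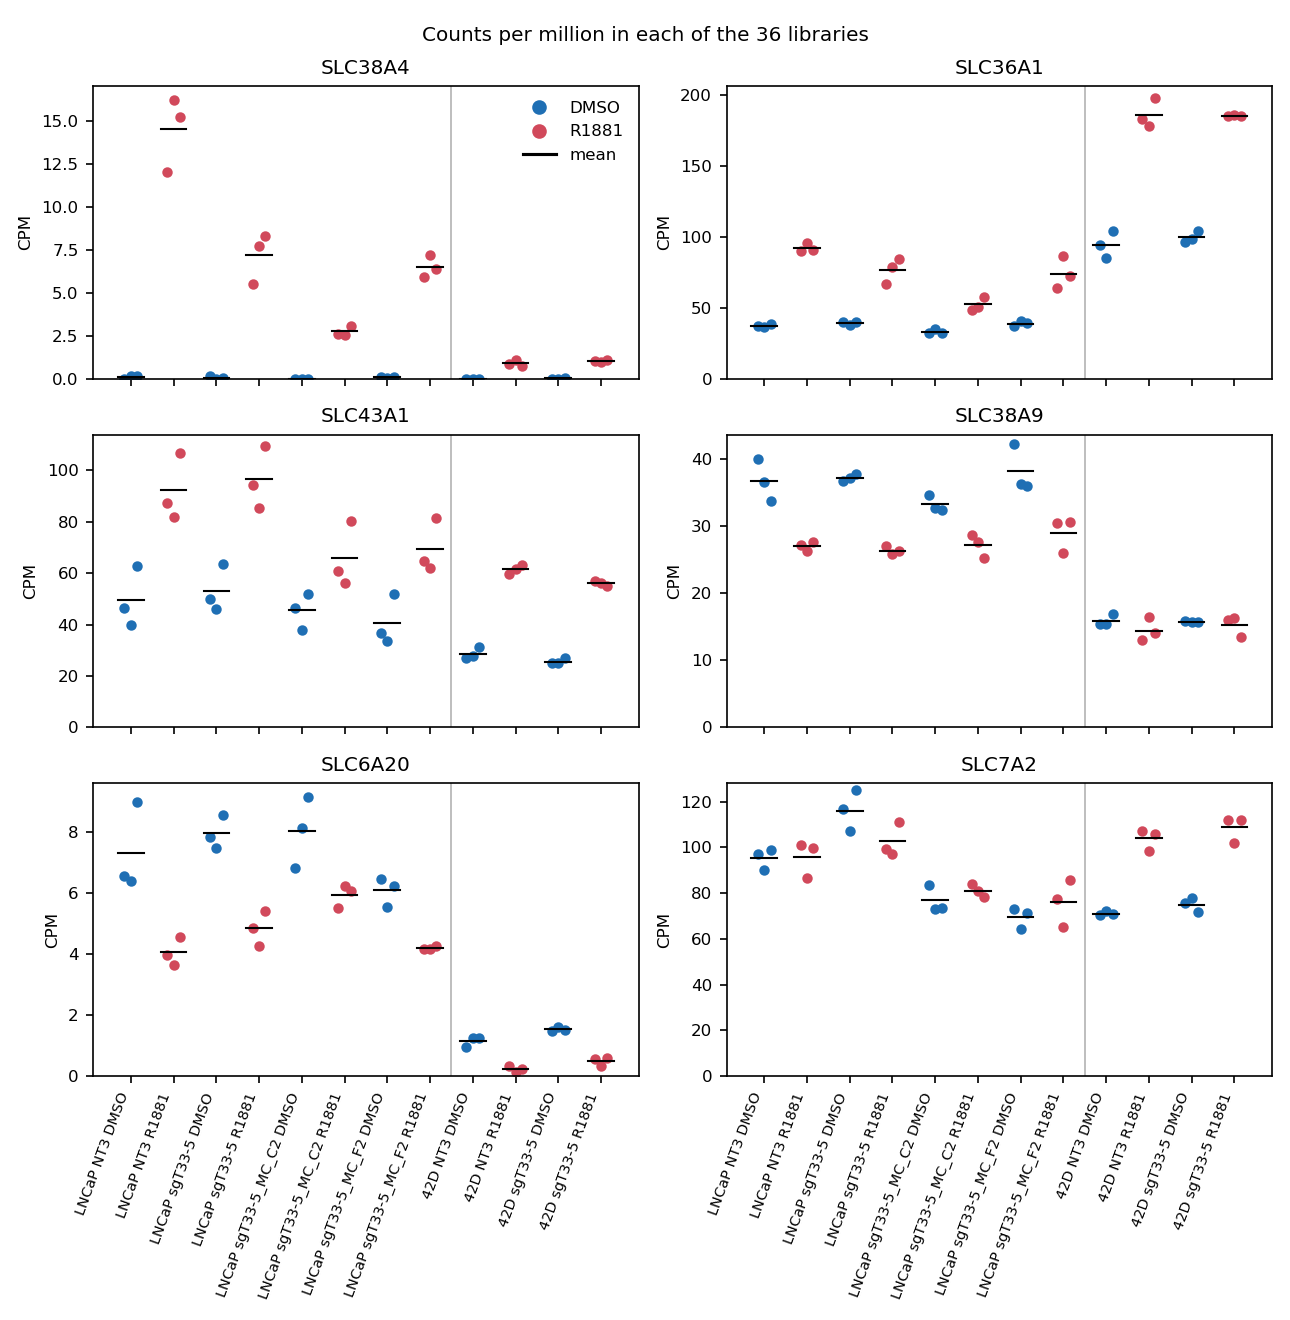
Level in CPM (vertical axis, from 0) of 6 transporters in every library, by group; blue points are DMSO, red points R1881, black lines group means, and the grey line separates LNCaP from 42D. SLC38A4, SLC36A1 and SLC43A1 were higher with R1881 in all 6 lines, and SLC38A9 was lower in the 4 LNCaP lines with no such gap in 42D.

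In the sgT33-5 line, 4 members rose and 3 fell with R1881, where 6.78% of all genes rose and 5.7% fell. The C2 line had 2 up and 3 down (3.6% and 2.06% of all genes), and the F2 line 4 up and 2 down (6.4% and 3.98%). SLC36A1 and SLC38A4 rose, and SLC38A9 and SLC6A20 fell, in all 4 LNCaP lines. The rise of SLC36A1 was 0.96 (log2, SE 0.0887) in sgT33-5, 0.66 (SE 0.0901) in C2 and 0.92 (SE 0.0879) in F2. SLC43A1 rose by 0.85 (SE 0.2) in sgT33-5 and 0.75 (SE 0.204) in F2. The F2 call ended without F2 DMSO replicate 1 or 2 (adjusted p = 0.0908 and 0.111) or F2 R1881 replicate 3 (0.124), and with no filter on low counts (0.0507). In C2, SLC43A1 measured 45.5 and 65.8 CPM and did not pass without the block. With the block it rose there by 0.52 (SE 0.0559, adjusted p = 1.54e-08), although the numbers did not count as pairs in that comparison. SLC6A20 lost its call in C2 with DESeq2 (adjusted p = 0.0774), with no filter (0.0657), in a fit of the C2 libraries alone (0.0651) and without DMSO replicate 2 or 3 or any R1881 library (0.0725 to 0.276), and in F2 without DMSO replicate 1 (0.0556). SLC38A9 lost its own in C2 without DMSO replicate 1 or 2 or R1881 replicate 3 (0.0549 to 0.126). SLC6A19 fell in sgT33-5 (4.3 to 2.26 CPM) and in C2 (1.72 to 0.761 CPM). These calls ended in sgT33-5 without DMSO replicate 2 (0.077) and in C2 without DMSO replicate 1 or 2 or R1881 replicate 1 or 3 (0.0518 to 0.158). SLC6A3 rose from 5 to 30 counts in sgT33-5, a call that ended without the 2 libraries low in mitochondrial counts (0.127) or DMSO replicate 3 alone (0.0625), and from 4 to 27 in F2, where it ended without DMSO replicate 2 or 3 or R1881 replicate 2 (0.0581 to 0.075). In F2, where same-numbered libraries paired, the block gave 10 members, 4 up and 6 down, beside 8.87% and 6.95% of all genes in that fit. It added SLC7A5 (-0.59), SLC1A5 (-0.17), SLC3A2 (-0.14) and SLC6A11 (-0.16).

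In 42D more members passed with R1881 than in LNCaP, and so did more of all genes. With R1881, 9 of 36 rose and 4 fell in 42D NT3, where 13.9% of all genes rose and 11.4% fell, and 9 rose and 4 fell in 42D sgT33-5 (14.1% and 13.2% of all genes). The members' shares were 25% up and 11.1% down in both. SLC36A1 rose from 94, 85.1 and 104 CPM to 183, 178 and 198 in NT3 (log2 1, SE 0.0583, adjusted p = 2.08e-11). SLC43A1 rose from 26.9, 27.8 and 31.1 CPM to 59.8, 61.7 and 63.2 (1.13, SE 0.0602, adjusted p = 2.16e-12). In both genes all R1881 libraries were above all DMSO libraries. SLC38A4 had 0 counts in the 3 NT3 libraries with DMSO and 13, 18 and 12 with R1881, at least 14.1-fold higher against a floor of 3 counts over the group.

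Members that rose in 42D NT3 also included carriers of cationic and of acidic amino acids and a further SLC36 carrier. SLC7A2, a carrier of cationic amino acids, measured 70.3, 72 and 70.7 CPM with DMSO and 107, 98.4 and 106 with R1881 (0.57, SE 0.0512, adjusted p = 1.29e-08). SLC1A1, a glutamate and cysteine carrier, measured 36.1, 35.2 and 34.2 CPM and 46.6, 45.1 and 46.8 (0.41, SE 0.0637). SLC36A4 measured 15, 16.9 and 17.5 CPM and 23, 22.9 and 24.9 (0.54, SE 0.0794). The libraries of the 2 treatments did not overlap in any of the 3 genes, and the same was true in 42D sgT33-5. There SLC7A2 rose by 0.54, SLC1A1 by 0.53 and SLC36A4 by 0.66. SLC38A1 rose by 0.15 and 0.14, a small change at a level of 183 to 201 CPM in NT3, lost in sgT33-5 without DMSO replicate 2 (adjusted p = 0.051) or R1881 replicate 3 (0.0632). SLC1A4, the alanine and serine exchanger, rose by 0.22 in NT3 and lost the call without any 1 of the 6 libraries (adjusted p from 0.0571 to 0.0823).

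Among the members that fell in 42D, SLC6A20 went from 1.15 to 0.232 CPM in NT3 (fell by 2.27, SE 0.382) and SLC7A7, a light chain for cationic amino acids, from 2.05 to 0.604 CPM (fell by 1.71, SE 0.432). SLC6A11, a GABA carrier, fell by 0.21 from 50.3 to 43 CPM, a call that ended without NT3 DMSO replicate 3 (adjusted p = 0.0782). SLC6A6, the taurine carrier, fell by 0.39 in NT3 and lost the call without any DMSO library or R1881 replicate 2 or 3 (0.0579 to 0.128). In 42D sgT33-5 SLC6A20 and SLC7A7 fell too, by 1.64 and 1.16, and SLC38A6, whose gene overlaps the far more abundant TRMT5, by 0.41. There the SLC7A7 call ended without DMSO replicate 1 or 2 or R1881 replicate 3 (0.0764 to 0.0936), and the SLC38A6 call with DESeq2 (0.0643) or without R1881 replicate 2 or 3 (0.0864 and 0.0578). SLC6A11 fell there by 0.18 and lost the call with DESeq2 (0.0842), with no filter (0.0565), in a fit of these libraries alone (0.0586) and without DMSO replicate 2 (0.153) or R1881 replicate 1 or 2 (0.0633 and 0.156). SLC6A3 rose from 0.326 to 2.08 CPM in NT3 and from 0.423 to 4.88 in sgT33-5. SLC6A19 had 3 counts with DMSO and 52 with R1881 in 42D sgT33-5, a ratio of 18.1 (95% counting interval 5.87 to 90.7). With the block, 20 members passed in 42D NT3 (12 up, 8 down), beside 17.5% and 15.9% of all genes in that fit. In 42D sgT33-5 21 passed (11 up, 10 down), beside 17.4% and 17.6%. The additions to both included SLC38A2 (0.13 and 0.15), SLC7A5 (-0.41 and -0.42) and SLC1A3 (-0.49 and -0.49).

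**Figure D4:**
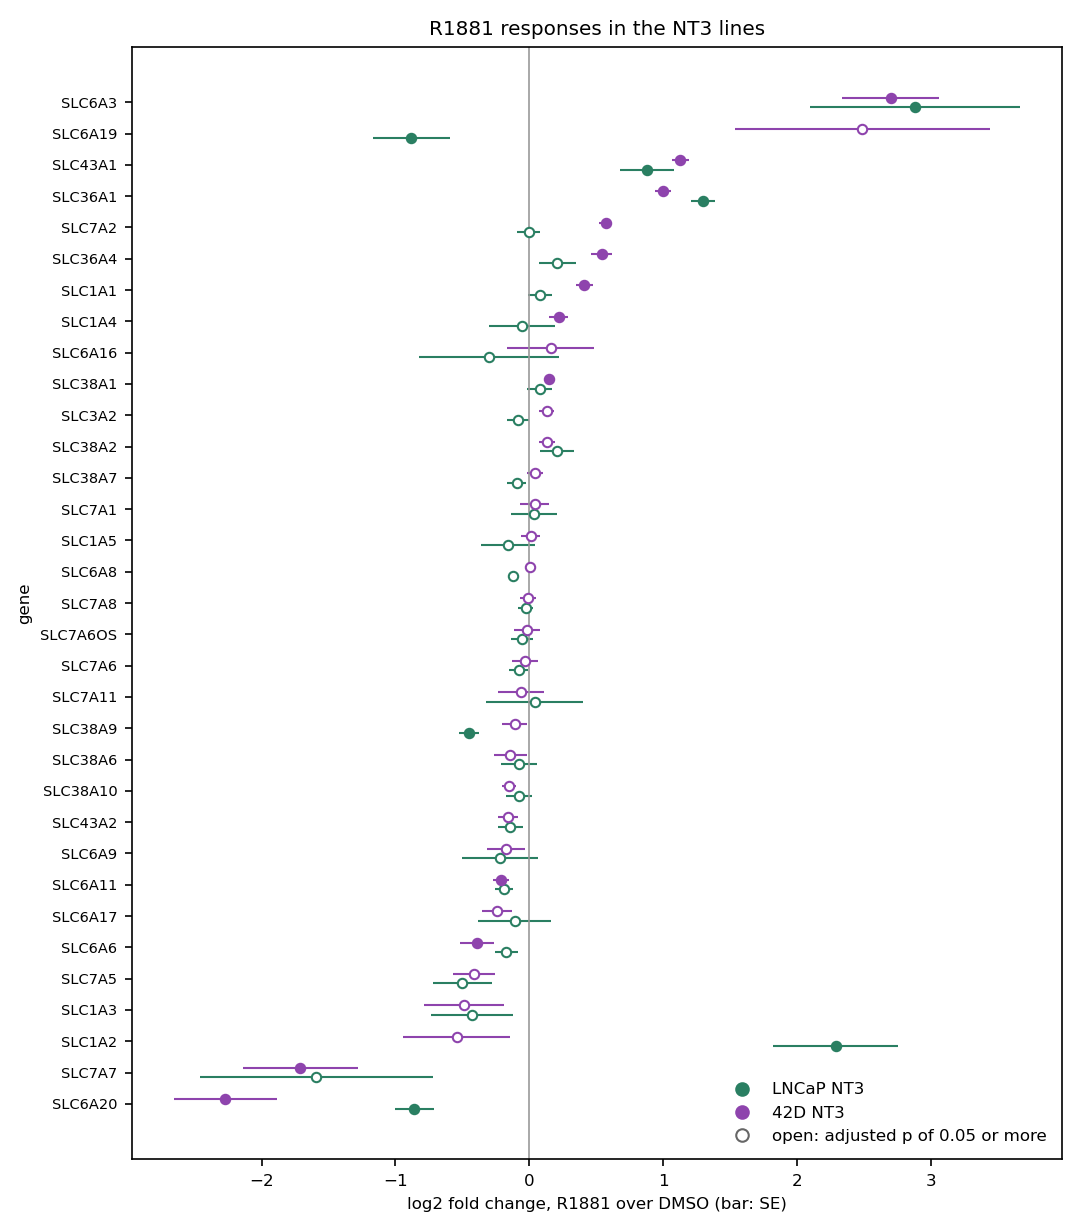
Log2 fold change with R1881 over DMSO (horizontal axis, bars SE) of the members tested in both cell lines, in LNCaP NT3 (green) and 42D NT3 (purple); filled points passed the test, and SLC38A4 is left out because its fitted change depends on libraries at 0. SLC36A1, SLC43A1 and SLC6A3 rose in both lines. SLC7A2, SLC1A1, SLC36A4, SLC38A1 and SLC1A4 passed as higher in 42D alone.

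Did the responses differ between the cell lines? A test of the difference, 42D NT3 against LNCaP NT3, passed for 4 of 38 members, 2 with a higher and 2 with a lower response in 42D (1.82% and 2.03% of all genes). SLC7A2 measured 95.4 and 95.6 CPM in LNCaP NT3 with DMSO and R1881 and 71 and 104 in 42D, a difference in response of 0.55 (log2, SE 0.107, adjusted p = 0.00093). SLC6A20 differed by -1.44 (SE 0.404, adjusted p = 0.0356) and SLC6A19 by 3.35 (SE 0.992, adjusted p = 0.0473). Both rest on few reads in 42D. The SLC6A20 call ended with DESeq2 (0.0795), with no filter (0.0843), in a fit of these libraries alone (0.102) and without LNCaP DMSO replicate 1 or 2, LNCaP R1881 replicate 3, or 42D DMSO or R1881 replicate 2 or 3 (0.0655 to 0.3). The SLC6A19 call ended in a fit of these libraries alone (0.0643) and without LNCaP DMSO replicate 1 or 2, LNCaP R1881 replicate 2 or 3, any 42D DMSO library, or 42D R1881 replicate 2 or 3 (0.0504 to 0.48). SLC1A2 differed by -2.86 (SE 0.639, adjusted p = 0.00425). For SLC36A1 the difference was -0.32 (95% interval -0.55 to -0.10, adjusted p = 0.133), for SLC43A1 0.21 (-0.27 to 0.70, adjusted p = 0.799) and for SLC38A9 0.31 (0.07 to 0.55, adjusted p = 0.185), none of which passed.

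The guide lines were compared with NT3 at each treatment. All 3 LNCaP lines share the same NT3 libraries, so their differences are not independent of each other. With DMSO, no member passed in sgT33-5, where 0.509% of all genes were higher and 0.889% lower, and 2 members had an unadjusted p under 0.05 (DESeq2 called 0). In C2 8 were higher and 4 lower (8.53% and 9.63% of all genes), and in F2 3 higher and 4 lower (8.94% and 7.73%). No member passed in 42D sgT33-5 with DMSO (0.896% and 0.234% of all genes), with 4 at an unadjusted p under 0.05 (DESeq2 called 0). With R1881, sgT33-5 had 0 higher and 1 lower (0.979% and 2.06%), C2 9 and 4 (9.67% and 13.3%), F2 3 and 6 (6.19% and 7.26%) and 42D sgT33-5 1 and 0 (0.396% and 0.117%).

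SLC38A4 was lower in all 3 LNCaP guide lines with R1881, and it was the 1 member called in sgT33-5. NT3 measured 12, 16.2 and 15.2 CPM, sgT33-5 5.49, 7.72 and 8.32, F2 5.89, 7.21 and 6.36, and C2 2.62, 2.55 and 3.07. The NT3 libraries were above all others, those of sgT33-5 and F2 overlapped, and C2 was lowest. The difference from NT3 was -1.01 in sgT33-5 (SE 0.159, adjusted p = 0.000454), -1.15 in F2 (SE 0.159, adjusted p = 1.64e-05) and -2.38 in C2 (SE 0.176, adjusted p = 3.5e-10). With both libraries low in mitochondrial counts left out, SLC38A4 in sgT33-5 differed by -0.84 (adjusted p = 0.00755). In 42D the R1881 levels were 0.891 CPM in NT3 and 1.01 in sgT33-5, with overlapping libraries. Because DMSO libraries held 0 to 2 counts each, the change with R1881 could not be compared between lines with any precision: the difference of responses was -0.57 in sgT33-5 (95% interval -3.08 to 1.93).

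SLC36A1 was lower with R1881 in C2, at 48.6, 50.6 and 57.9 CPM, and in F2, at 63.8, 86.2 and 72.4, than in NT3 at 89.8, 95.6 and 91. Both sets lay below the NT3 libraries. The differences were -0.81 (SE 0.0857, adjusted p = 7.4e-08) and -0.31 (SE 0.0844, adjusted p = 0.0131), and the F2 call ended without F2 replicate 1 (0.139) or NT3 replicate 2 (0.0606) and in a fit of these libraries alone (0.0714). In sgT33-5 it measured 66.9, 78.9 and 84.3 CPM and did not pass without the block. Same-numbered libraries paired in that comparison, and the block gave 5 members, 3 higher and 2 lower, beside 2.91% and 5.23% of all genes. They were SLC38A4, SLC36A1 (-0.26, adjusted p = 0.0157), SLC3A2 (0.23), SLC43A2 (0.26) and SLC6A19 (0.81).

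The response to R1881 itself was tested against that of NT3. SLC36A1 in C2 was the 1 call without the block. Its levels went from 32.9 to 52.4 CPM there and from 37.3 to 92.1 in NT3. The response was lower by 0.63 on the log2 scale (difference -0.63, SE 0.126, adjusted p = 0.00968). That call ended without C2 DMSO replicate 2 (0.0674) or C2 R1881 replicate 1 (0.0658). Thus 0 members were higher and 1 lower in C2 (0.0967% and 0.593% of all genes). None passed in sgT33-5 (0% and 0% of all genes), F2 (0% and 0%) or 42D sgT33-5 (0.026% and 0.0974%). The members with an unadjusted p under 0.05 numbered 4, 1 and 0 there, and DESeq2 called 0 in each. With the block, SLC43A1 (-0.37, SE 0.0789, adjusted p = 0.00502) and SLC1A2 (-2.36, SE 0.642, adjusted p = 0.0441) also had a lower response in C2. The numbers did not count as pairs in that comparison. Without the block, the androgen target FKBP5 had a lower response in C2 as well (difference -1.25, SE 0.12, adjusted p = 4.7e-06). KLK3, another androgen target, went the other way and did not pass (difference 0.66, SE 0.286, adjusted p = 0.713).

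Further members passed in C2, in F2 or in both, and the lines were not tested against each other. Among acidic amino acid carriers, SLC1A1 measured 43.4, 44.9 and 42.7 CPM in C2 with DMSO against 26.5, 26.1 and 21 in NT3 (0.84, SE 0.086, adjusted p = 5.63e-08) and was higher by 0.88 with R1881. In F2 it measured 26.2, 25.4 and 27.4 CPM with DMSO and did not pass. SLC1A3, another glutamate carrier, was higher in C2 by 1.11 (SE 0.274) with R1881, at 2.95 against 1.38 CPM. With DMSO it measured 3.33 CPM in C2 and 3.21 in F2 against 1.84 in NT3. Those calls ended without NT3 replicate 1 or 2, and also without C2 replicate 3 (0.066 to 0.16) or without F2 replicate 1 or 3 (0.0765 to 0.167). SLC1A2 was called both ways at under 1 CPM: it measured 0.54 CPM in C2 against 0.171 in NT3 with DMSO (1.61, SE 0.506, adjusted p = 0.027), and 0.351 in F2 against 0.873 with R1881 (-1.29, SE 0.39, adjusted p = 0.0274). Both calls ended with DESeq2 (0.0793 and 0.102), with no filter (0.0527 and 0.0564) and without any of 4 single libraries each (0.0516 to 0.123).

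Among heavy and light chains, SLC7A8, which exchanges neutral amino acids with SLC3A2 as partner, was higher in both lines at both treatments. It measured 151, 140.1 and 152 CPM in C2 and 166, 158 and 165 in F2 with DMSO against 119, 119.6 and 123 in NT3 (0.30, SE 0.0583, and 0.44, SE 0.0582), and no library overlapped. SLC7A5 went the other way in C2 with DMSO, at 12.5, 12.1 and 15.3 CPM against 19.8, 17.1 and 26.3 (-0.66, SE 0.22, adjusted p = 0.0417), a call that ended with no filter (0.115) and without NT3 replicate 1 or 3 or C2 replicate 1 or 2 (0.0705 to 0.173). SLC7A6, another light chain, was higher in F2 by 0.21 with R1881, with overlapping libraries, and lost the call in a fit of these libraries alone (0.138) and without NT3 replicate 1 or 2 or F2 replicate 1 or 3 (0.0527 to 0.209). SLC3A2 itself was higher in C2, by 0.37 (SE 0.0824, adjusted p = 0.00184) with R1881, at 189, 196 and 213 CPM against 149, 146 and 169. SLC43A2 was higher in F2 by 0.47 (SE 0.0917) with DMSO and 0.46 (SE 0.0926) with R1881. SLC43A1 passed with R1881 only with the block, at -0.49 in C2 and -0.41 in F2 (adjusted p = 7.02e-09 and 4.53e-07). The numbers did not count as pairs in either comparison. SLC7A2 was lower in F2 by 0.45 with DMSO, a difference of -0.45 (SE 0.0852, adjusted p = 0.000544), at 72.9, 64.4 and 71.5 CPM against 97, 90.3 and 98.8. It was also called lower in F2 with R1881 and in C2 at both treatments. The C2 call with DMSO ended without C2 replicate 2 (0.0513). With R1881 the C2 call ended with DESeq2 (0.0513) and without NT3 replicate 1 or 3 or any C2 library (0.0739 to 0.199). The F2 call with R1881 ended in a fit of these libraries alone (0.0716) and without NT3 replicate 1 (0.06) or F2 replicate 2 (0.0804).

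Among SLC6 members, SLC6A17, a vesicular carrier of neurons, stood at 1.43 CPM in NT3 with DMSO and 0.13 in F2, with 67 and 7 counts, a ratio of 11 (95% counting interval 5.07 to 28.5). It was also called lower in C2. With R1881 that call ended with DESeq2 (0.081), with no filter (0.0599) and in a fit of these libraries alone (0.0863). It also ended without NT3 replicate 2 or C2 replicate 2 or 3 (0.0756 to 0.163). With DMSO the C2 call ended without NT3 replicate 1 (0.0769) or C2 replicate 2 (0.0609). SLC6A16, an orphan of the family, was higher in C2 at 1.89 CPM against 0.618 with R1881 (1.61, SE 0.426), a call that ended without NT3 replicate 1 (0.0538). SLC6A11 was higher in C2 by 0.34 and SLC6A8 by 0.20 with R1881, and SLC6A20 by 0.56. SLC38A11 had 18 counts over the NT3 libraries with DMSO and 1 over those of F2, and an unnamed long non-coding gene overlaps it. In F2 with DMSO, where the numbers paired, the block gave 14 members (8 higher, 6 lower), beside 13.5% and 11.8% of all genes. It added SLC6A9 (0.37), which overlaps CCDC24, SLC3A2 (0.21), SLC43A1 (-0.28), SLC38A1 (-0.18), SLC7A6 (0.17), SLC38A10 (0.25) and SLC6A11 (0.15).

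In 42D sgT33-5 with R1881, SLC6A3 measured 3.72, 6.1 and 4.81 CPM against 2.27, 2.08 and 1.9 in NT3 (1.22, SE 0.21, adjusted p = 0.00486), and the libraries did not overlap. The call ended without sgT33-5 replicate 2 (0.0559). The block, with paired numbers, gave 5 members, 2 higher and 3 lower, beside 1.4% and 0.753% of all genes. They were SLC6A3, its chromosome 5 neighbour SLC6A19 (2.01), SLC7A11 (-0.32), SLC7A1 (-0.15) and SLC1A5 (-0.15).

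**Figure D5:**
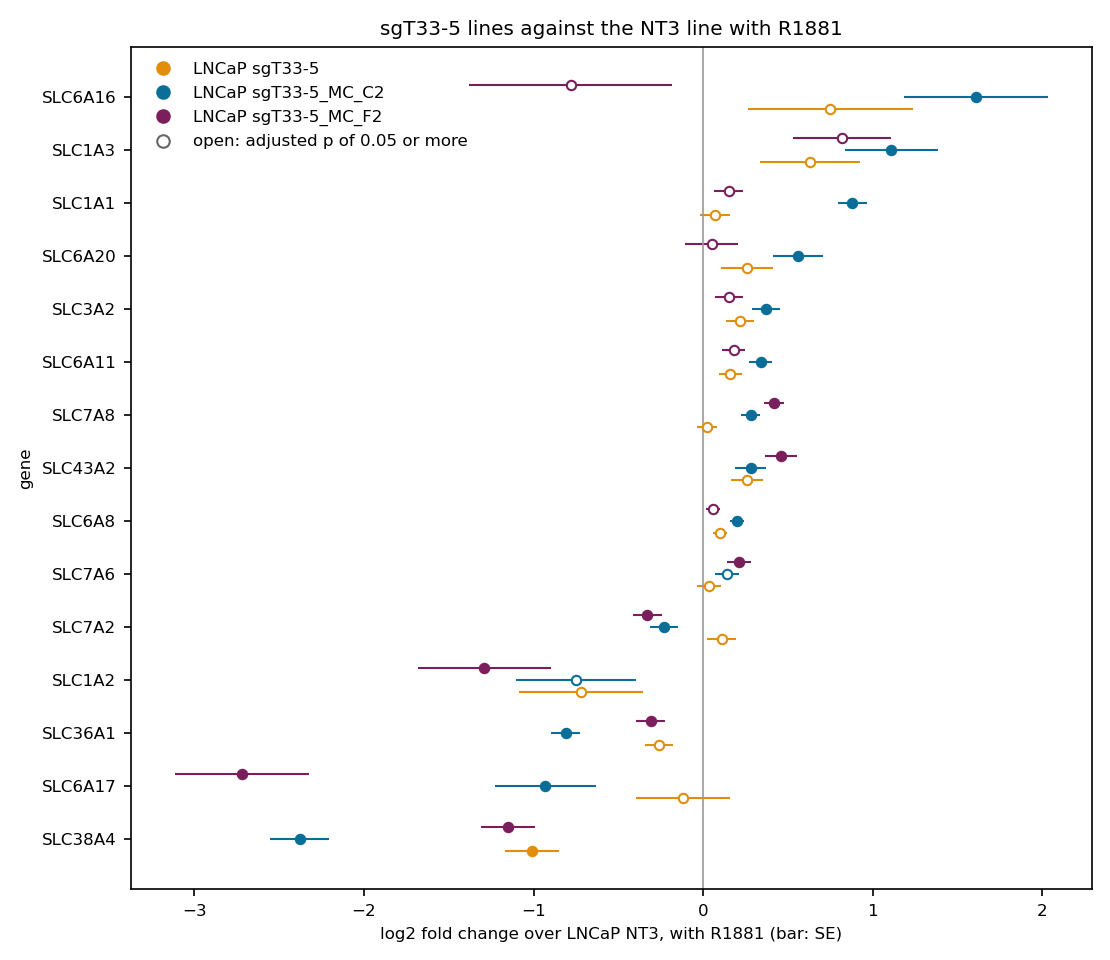
Log2 fold change over LNCaP NT3 with R1881 (horizontal axis, bars SE) in sgT33-5 (orange), C2 (blue) and F2 (purple), for members that passed in at least 1 line; filled points passed, and SLC38A11, with 1 count over the F2 libraries, is left out. SLC38A4 is the 1 member filled in all 3 lines, SLC1A1 lies at 0.88 in C2, and SLC6A17 lies at -0.93 in C2 and -2.72 in F2.

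The cell lines themselves differed in many members. In 42D NT3 against LNCaP NT3, 13 of 38 members were higher and 15 lower with DMSO, where 34.8% of all genes were higher and 33.3% lower, and 12 were higher and 14 lower with R1881 (34.7% and 34.2%). The members' shares, 34.2% and 39.5% with DMSO, were near those of all genes. Among the members, 12 were higher and 14 lower at both treatments. With R1881, the call of SLC7A7 ended without any LNCaP library or 42D replicate 1 or 2 (0.0673 to 0.155). That of SLC1A5 ended without LNCaP replicate 3 or 42D replicate 2 or 3 (0.0522 to 0.175). With DMSO, that of SLC6A3 ended without LNCaP replicate 3 (0.0975) or 42D replicate 2 (0.151). The 15 lower with DMSO include SLC38A4, which had 0 counts in 42D and 4 in LNCaP, so no fold is given. Its call ended with DESeq2 (0.0748), with no filter (0.0547) and without LNCaP replicate 2 or 3 or any 42D library (0.0684 to 0.1). Each cell line had 1 NT3 line, so the cell line and the history of that line cannot be told apart.

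Of 3 tested carriers of acidic amino acids, 3 were higher in 42D with DMSO and 2 with R1881, where SLC1A2 measured 0.631 CPM in 42D and 0.873 in LNCaP and did not pass. Both tested SLC36 carriers were higher at both treatments, and the ASC exchangers split, with SLC1A4 higher and SLC1A5 lower. SLC1A3 measured 11.7, 13.5 and 19.5 CPM in 42D with DMSO and 1.87, 1.51 and 2.13 in LNCaP (3.01, SE 0.284, adjusted p = 1.25e-10). SLC1A4 measured 71.1, 71.9 and 72.4 CPM and 25.3, 22.1 and 33.9 (1.40, SE 0.201). SLC36A1 was higher by 1.34 (SE 0.0854) and SLC36A4 by 0.90 (SE 0.119). No library of one line reached the other in these 4 genes. SLC36A1 in 42D with DMSO, at 94.5 CPM, was thus near its level in LNCaP with R1881, at 92.1. SLC6A17 stood at 9.78 and 1.43 CPM (2.76, SE 0.175). The glutamine carrier SLC38A3 had 109 counts over the 42D libraries and 2 over the LNCaP libraries, a ratio of 53.7 (95% counting interval 14.5 to 449).

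SLC7A8, the SLC3A2 heavy chain and SLC43A1 were lower in 42D, while SLC7A5 and SLC43A2, which also carry large neutral amino acids, measured 19 against 21 and 69.8 against 69.4 CPM with DMSO and did not pass. Of 5 tested light chains of the SLC7 family, 2 were lower with DMSO, SLC7A8 and SLC7A11, and 2 higher, SLC7A6 (0.33, SE 0.0821) and SLC7A7 (2.08, SE 0.522). SLC7A8 measured 48.9, 46.7 and 47.9 CPM in 42D and 119, 119.6 and 123 in LNCaP with DMSO (difference -1.33, SE 0.058, adjusted p = 2.48e-21). SLC3A2 measured 99.5, 98.3 and 103 CPM and 155, 151 and 184 (-0.71, SE 0.0791), and SLC43A1 was lower by a log2 difference of -0.80 (SE 0.184). SLC38A1 measured 191, 178 and 179.9 CPM and 449, 426 and 499 (-1.32, SE 0.0817), and SLC38A9 15.4, 15.4 and 16.8 CPM and 40, 36.5 and 33.7 (-1.21, SE 0.0837). In each of these the lines did not overlap. SLC7A11 stood at 126 and 274 CPM (-1.12, SE 0.322) and SLC1A5 at 156 and 234 (-0.59, SE 0.176), and both calls ended without LNCaP NT3 DMSO replicate 3 (adjusted p = 0.058 and 0.0581). SLC38A4 with R1881 measured 0.891 CPM in 42D and 14.5 in LNCaP (-4.01, SE 0.211, adjusted p = 1.3e-17). SLC6A19 had 2 counts in 42D and 110 in LNCaP with DMSO, a ratio of 55.8 in favour of LNCaP (95% counting interval 15.1 to 467). The neuroendocrine marker NCAM1 moved with the cell line as given above, and its part in these differences was not tested.

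Genes that sense, store or use amino acids were counted beside the transporters. With R1881 in LNCaP NT3, where 8% of all genes rose and 5.15% fell, 1 of 30 amino acid response genes rose and none fell. That one was VLDLR (0.78, SE 0.113), a lipoprotein receptor. This count rests on the fit without the replicate number, and most of these genes follow that number, as described above. With the block, in a comparison whose numbers paired, 4 rose and 8 fell, beside 11% and 7.73% of all genes in that fit. The 4 that rose were ATF3, GDF15, GPT2 and VLDLR. ATF4 itself was at -0.14 (SE 0.0395, adjusted p = 0.0118) there. STC2, a secreted glycoprotein, at -0.39 and PSAT1, of serine synthesis, at -0.19 were also among those that fell. CHAC1, which degrades glutathione, measured 23, 14.9 and 39.5 CPM with DMSO and 17.6, 10.1 and 29.7 with R1881, lower within each number and overlapping without it. The block gave 2 up and 9 down in the F2 response, beside 8.87% and 6.95% of all genes.

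The other lists in LNCaP NT3 are read against the same 8% and 5.15%. Of 37 tested genes of mTORC1 and amino acid sensing, 2 rose, a share under the 8%, and 3 fell, a share over the 5.15%. Among these 5, the kinase MTOR was up by 0.65 (SE 0.12) and its inhibitor DEPTOR at -1 (SE 0.118). Of 32 tested genes of amino acid metabolism 5 rose and 1 fell, with ODC1, the first enzyme of polyamine synthesis, up by 0.60 and GCLC, of glutathione synthesis, at -0.44. Of 13 other amino acid transporters 2 rose and 1 fell, with the peptide carrier SLC15A2 up by 1.11 (SE 0.195), and of 23 cytosolic aminoacyl-tRNA synthetase genes 1 rose and 1 fell. The medians of the 5 lists lay between -0.08 and 0.03 on the log2 scale, beside -0.01 over all genes.

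In 42D NT3, where 13.9% of all genes rose and 11.4% fell, 3 response genes rose and 2 fell of 29, shares under those of all genes. GPT2, an alanine aminotransferase, was up by 0.87 (SE 0.0609). With the block 6 rose and 8 fell, beside 17.5% and 15.9% of all genes, and ATF4 was at 0.17 (SE 0.0339, adjusted p = 0.000115). In the sensing list 4 rose and 2 fell of 37, also under the shares of all genes, with DEPTOR at -1.80 (SE 0.0653) and SESN3, a stress-induced inhibitor of mTORC1, at -1.29 (SE 0.0695). The block gave 5 and 7 there. In metabolism 9 rose and 3 fell of 32, with ODC1 up by 1.80 (SE 0.0561) and GLUL, glutamine synthetase, by 0.94 (SE 0.067). SLC15A2 rose by 2.55 (SE 0.177).

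In C2 with R1881, 3 sensing genes of 37 were higher than in NT3 and 8 lower, beside 9.67% and 13.3% of all genes, among them SESN3 at 0.52 (SE 0.0596) and MTOR at -0.55 (SE 0.119). In F2 1 was higher and 2 lower, beside 6.19% and 7.26%. In sgT33-5 with R1881, where 0.979% of all genes were higher and 2.06% lower, no sensing gene passed and VLDLR was the 1 response gene called, with a log2 difference of -0.44 (SE 0.11). With the block, in a comparison whose numbers paired, 9 of 30 response genes were higher and 1 lower, beside 2.91% and 5.23% of all genes. ATF5 (0.36), TRIB3 (0.40), SESN2 (0.28) and DDIT4 (0.27), stress-response genes, were among the higher ones. In F2 with DMSO the block gave 12 higher and 1 lower of 30, against 1 and 0 without it, beside 13.5% and 11.8% of all genes. For 42D sgT33-5 with R1881 it gave 0 and 1 of 29, beside 1.4% and 0.753%. The replicate numbers paired there but not in the comparisons that follow. 42D sgT33-5 with DMSO had 0 and 7 (2.98% and 1.34% of all genes). C2 had 1 and 5 with DMSO (13.5% and 13.6%) and 1 and 6 with R1881 (14.3% and 17.4%). F2 with R1881 had 10 and 1 (9.99% and 11.6%), and sgT33-5 with DMSO 3 and 0 (2.3% and 2.69%).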

How the data were processed

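The authors deposited 1 table of raw read counts per gene for 36 libraries of polyadenylated RNA (paired 51 bp reads, per the labels' protocols). Reads were trimmed with cutadapt and aligned with HISAT2 2.1.0 to GRCh38, per the submitters' processing notes; the counting tool and its strand setting are not given in the sources used here. Counts were tested as deposited with edgeR 4.0.16 (R 4.3.3): TMM scaling, filterByExpr by group, robust quasi-likelihood fits for LNCaP (24 libraries), 42D (12) and all 36, Benjamini-Hochberg adjustment over all genes tested, threshold 0.05. Levels are CPM on 1 TMM scale, with SD over 3 libraries in the tables, and per kb over GENCODE exon unions. Ratios at low counts carry exact 95% intervals for counting error only, with a floor of 3 counts. The scripts were tested on simulated data.

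Replicates differed by more than sampling noise (chi-square per gene 2.59 to 24.2 over 36 pairs), so none was merged. Same-numbered libraries were taken as paired where all 3 correlations of their deviations exceeded 0.1: the R1881 responses of LNCaP NT3, F2, 42D NT3 and 42D sgT33-5, F2 against NT3 with DMSO, and sgT33-5 against NT3 with R1881 in LNCaP and in 42D. The lowest correlations in these 7 ran from 0.116 to 0.189.

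Members and lists were chosen with earlier results of these data known. Any member may be named; full values are given for called members of at least 5 CPM whose groups do not overlap (up to 10 a direction), levels for the rest, and from each other list the 2 largest called changes a direction. Alternatives were RLE scaling, no filter, DESeq2 1.42.0, only the libraries compared, a replicate block, each library left out, and the 2 libraries of low mitochondrial share left out. Upstream bases came from RefSeq windows (GRCh38.p14), which matched 45 of 60 members.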

Additional observations from a re-analysis of the deposited data

Results flagged for a closer look

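The response to R1881 of SLC36A1 was lower in C2 than in LNCaP NT3 by a tested difference of -0.63 on the log2 scale. Between 42D NT3 and LNCaP NT3 the tested difference of the response was 0.55 for SLC7A2, -2.86 for SLC1A2, -1.44 for SLC6A20 and 3.35 for SLC6A19. SLC1A2 had 8 and 40 counts with DMSO and R1881 in LNCaP NT3 and 45 with DMSO in 42D NT3, and SLC6A19 had 2 counts with DMSO in 42D NT3, so both rest on few reads.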

How the results depend on the processing

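Of 154 called results for single members, 108 kept their call and direction in every alternative that gave the member an adjusted p. The other 46 lost the call in at least 1, and none reversed. An alternative that did not test a member was not counted as a lost call. In the LNCaP NT3 response, SLC1A2 and SLC6A3 were thus compared in 10 alternatives and SLC6A20 in 11. RLE scaling moved no member by more than 0.022 (log2). With the replicate block, more members passed in most comparisons: in the R1881 responses 13 in LNCaP NT3, 11 in sgT33-5, 10 in F2, 20 in 42D NT3 and 21 in 42D sgT33-5; against NT3 with DMSO 2 in sgT33-5, 14 in F2 and 5 in 42D sgT33-5; with R1881 5 in sgT33-5, 17 in F2 and 5 in 42D sgT33-5; and 3 in the response difference of C2. The block called more of all genes too, in the LNCaP NT3 response 11% up and 7.73% down against 8% and 5.15% without it. Without a filter on low counts the counts were 11 (sgT33-5 response), 2 (sgT33-5, DMSO), 2 (42D sgT33-5, DMSO), 4 (sgT33-5, R1881) and 2 (42D sgT33-5, R1881). Fits of only the libraries compared gave 5 (LNCaP NT3 response), 2 (sgT33-5, DMSO), 4 (F2, R1881) and 2 (42D against LNCaP, response difference), where DESeq2 gave 1. Leaving out 1 library at a time gave 2 to 4 in the C2 response, 4 to 8 for C2 with DMSO, 1 to 3 for sgT33-5 with R1881, 0 to 2 for 42D sgT33-5 with R1881, 0 to 1 in the response difference of C2 and 2 to 5 in that of 42D against LNCaP. The causes were not tested beyond the fewer genes or libraries each setting holds. At these depths, members under 1 CPM rest on few counts a group.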

Other observations

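SLC43A3, next to SLC43A1 on chromosome 11, had a group mean of at most 0.0408 CPM. SLC6A18, between SLC6A19 and SLC6A3 on chromosome 5, had 0 counts in all libraries, while SLC6A3 reached 4.88 CPM and SLC6A19 4.3. SLC7A6OS measured 11.9 to 14.4 CPM over the 12 groups and passed no test without the block, and reads shared with SLC7A6 cannot be told apart without the strand setting. SLC38A6 and SLC6A9 also overlap other genes, TRMT5 and CCDC24.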
